A study of Rattus norvegicus with 36 samples.

Results

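Mast cell genes were followed in the ileum and proximal colon of UCD-T2DM rats, a polygenic strain that becomes obese and then develops type 2 diabetes on its own. The 10 genes were chosen by symbol: the proteases *Cpa3*, *Mcpt2*, *Cma1*, *Tpsab1* and *Tpsb2*, the histamine-forming enzyme *Hdc*, the IgE receptor chains *Ms4a2* and *Fcer1a*, the growth factor receptor *Kit* and the transcription factor *Gata2*. All 10 had a row among the 24773 genes of the count table, which are called transcripts below. Of the 10, 8 passed the low-count filter in each tissue, the exceptions being *Tpsab1* and *Tpsb2*. RNA-seq libraries were made from both tissues of 18 male rats, 6 per group, which gave 36 libraries. ND rats were nondiabetic and 70 days old, D1M rats were 168 to 172 days old and 22 to 23 days past diabetes onset, and D3M rats were 172 to 173 days old with 88 to 116 days of untreated diabetes. All animals came from the same diabetes-prone strain, so no rat was a lean or nondiabetic-strain control, and the ND rats were younger than both diabetic groups. Age and diabetes cannot be told apart in the comparisons with ND, whereas D3M and D1M rats were of like age. D3M rats had become diabetic at 57 to 85 days of age and weighed 472 to 575 g. D1M rats had become diabetic at 146 to 150 days and weighed 597 to 663 g. Diabetes duration, age at onset and body weight cannot be told apart between D3M and D1M. Fasting glucose was 85.6 to 102 mg/dL in ND, 93.6 to 179 mg/dL in D1M and 165 to 331 mg/dL in D3M rats.

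Mast cells arise from bone marrow progenitors and mature in tissues under stem cell factor, the ligand of the KIT receptor. They store histamine, carboxypeptidase A3 and serine proteases in granules bound to proteoglycan, and they release them when IgE bound to the high-affinity receptor FcεRI is crosslinked. In the rat gut, mucosal mast cells are rich in the β-chymase rMCP-2, while connective tissue mast cells hold other chymases and tryptases. *Kit* is also carried by the interstitial cells of Cajal, the pacemaker cells of gut muscle, and *Hdc* by some endocrine and myeloid cells. The libraries came from whole tissue, so fewer mast cells and less RNA per mast cell cannot be told apart.

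GATA2 binds DNA at GATA letters, and the genes below followed one another across libraries, so the stretch before the start of 3 of them is shown. The RefSeq promoter table (build GRCr8) held 8 of the 10 genes, without *Mcpt2* and *Ms4a2*, and the 250 bases before each start were searched for AGATAA and the 3 forms of it that begin with T, end with G or do both, on both strands. The 3 genes with a match were *Cpa3* (chr2:104673238-104673487, minus strand), *Cma1* (chr15:33390134-33390383, minus strand) and *Fcer1a* (chr13:88224680-88224929, minus strand). Sequences are written 5′ to 3′ on the strand of the gene, ending at the base before the start, and capitals mark the GATA letters.
Cpa3: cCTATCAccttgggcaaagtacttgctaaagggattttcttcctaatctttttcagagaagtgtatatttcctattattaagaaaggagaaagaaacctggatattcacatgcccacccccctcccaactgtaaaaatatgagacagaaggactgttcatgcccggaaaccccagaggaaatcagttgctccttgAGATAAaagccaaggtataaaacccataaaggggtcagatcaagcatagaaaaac
Cma1: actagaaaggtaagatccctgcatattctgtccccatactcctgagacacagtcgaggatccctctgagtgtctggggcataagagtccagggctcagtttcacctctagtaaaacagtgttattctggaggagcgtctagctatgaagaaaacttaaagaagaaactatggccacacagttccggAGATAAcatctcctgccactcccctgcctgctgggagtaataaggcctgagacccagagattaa
Fcer1a: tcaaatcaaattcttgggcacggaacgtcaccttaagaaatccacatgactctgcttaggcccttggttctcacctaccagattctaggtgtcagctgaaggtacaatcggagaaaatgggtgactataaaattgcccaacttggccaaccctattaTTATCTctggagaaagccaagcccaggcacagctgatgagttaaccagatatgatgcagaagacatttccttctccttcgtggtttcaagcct
*Cpa3* held 2 matches, the nearer one 55 bases before the start, *Cma1* held 1 at 64 bases and *Fcer1a* held 1 on the opposite strand at 93 bases. The share of promoters with a match was 27% of the 33469 of this length in the table, against 3 of the 8 members. The E-box letters CANNTG, which read the same on both strands, were in 5 of the 8, against 65.5% of all, and no E-box overlapped a GATA match. *Kit*, *Hdc*, *Gata2*, *Tpsab1* and *Tpsb2* held none of these GATA letters in this window.

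Total counts ranged from 10024041 to 18299050 in the colon and from 12279059 to 21510043 in the ileum, and a count of 3 stood for 0.145 to 0.286 CPM (counts scaled to a common library total, the scale of all levels here) in the colon and 0.136 to 0.249 in the ileum. Genes marking the ileum (*Fabp6*, *Slc15a1*, *Slc6a19* and 5 more) summed to 12483 CPM in the ND colon library of rat K4028, against at most 463 in the other colon libraries. Genes marking the colon (*Car1*, *Car2* and 5 more) summed to 4971 CPM in the ND ileum library of rat K4040, against at most 2075 in the other ileum libraries. The group results of the 8 genes are given with and without these libraries. B cell genes (*Cd79a*, *Cr2* and 7 more) summed to over 100 CPM in 5 colon libraries, 593 and 619 in ND rats K4047 and K4048, 771 in D1M K3989, and 268.5 and 109 in D3M P762 and K3977, against at most 11.2 in the other 13. Libraries were spread over 3 sequencing flow cells unevenly. In the colon 4 D3M libraries were on flow cell 2, 2 on flow cell 3 and 0 on flow cell 1, while ND and D1M had 2 on each. In the ileum 4 D3M libraries were on flow cell 1, 2 on flow cell 3 and 0 on flow cell 2.

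Mast cell transcripts were more abundant in the colon than in the ileum. Of the 8 genes tested, 8 were higher in the colon at a false discovery rate (FDR) under 0.05 in edgeR's quasi-likelihood test over 36 libraries, where 38.7% of all 13697 transcripts tested were called higher and 73.2% were called in either direction. The median log2 fold change was 1.27 over the 8 genes and 0.03 over all transcripts tested. *Mcpt2*, the main protease of rat mucosal mast cells, averaged 389 ± 150 CPM in the colon and 87.9 ± 38.7 CPM in the ileum (SD, n = 18 each), a log2 difference of 2.19 ± 0.20 (SE) with an FDR of 1.61e-11. *Cpa3*, the carboxypeptidase stored beside it, averaged 15.3 ± 5.96 CPM and 5.32 ± 2.44 CPM, a log2 difference of 1.62 ± 0.23 and an FDR of 2.08e-07. The IgE-binding chain *Fcer1a* differed by 1.88 ± 0.32 and the receptor's β chain *Ms4a2* by 1.35 ± 0.16 on the log2 scale. The other 4, *Kit*, *Cma1*, *Hdc* and *Gata2*, differed by 1.04 to 1.19, and the largest FDR among the 8 was 1.89e-05, for *Cma1*. Without the libraries of K4028 colon and K4040 ileum the count was again 8 of 8, with log2 differences of 1.00 to 2.27. The 18 colon values overlapped the 18 ileum values for each of the 8 genes. Genes of other cells that could carry some of these transcripts were higher in the colon too. These were 3 of 3 basophil genes (median log2 fold change 1.75), 4 of 5 endocrine genes (1.56) and 3 of 5 genes of interstitial cells of Cajal (0.70). Smooth muscle genes were also higher in the colon, 7 of 8 tested, and T cell genes lower, 6 of 7. The part of all these cells in the result was not tested.

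The tryptase genes had few counts. *Tpsb2*, a mast cell tryptase, had 2 counts in 18 colon libraries and 1 count in 18 ileum libraries. *Tpsab1*, the other tryptase, ranged from 0 to 0.43 CPM in the colon and from 0 to 0.849 CPM in the ileum, with 0 counts in 2 libraries of each tissue. Neither could be compared between groups at this depth. *Mcpt4*, another mast cell protease gene that is no member, ranged from 1.22 to 13.2 CPM in the colon and from 0 to 1.57 CPM in the ileum.

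In the colon the D3M rats had the lowest group mean of each of the 8 genes, and 0 of them passed the edgeR test between groups. At an FDR under 0.05, 0 of 8 were called for D3M against ND, where 0.0155% of 12906 transcripts tested were called. At an unadjusted p under 0.05, 4 of 8 were lower, against 5.56% of all transcripts, and DESeq2 called 2 of 8 at an FDR under 0.05 while limma-voom with quality weights called 0. With only the ND and D3M libraries fitted, 7 of 8 had an unadjusted p under 0.05 and 2 were called. The fitted difference was below 0 for 8 of 8 genes, against 52.4% of all transcripts, with a median of -0.66 beside -0.01 over all tested. Without ND K4028, 8 of 8 were again below 0 with a median of -0.72, and the values ran from -1.04 for *Mcpt2* to -0.29 for *Kit*. Without the 5 libraries rich in B cell transcripts, an alternative chosen after seeing the data, the median was -0.21, 7 of 8 were below 0 against 48.3% of all transcripts, and 1 of 8, *Gata2*, was lower at an unadjusted p under 0.05, against 4.1%. The ND and D3M libraries left out there were all on flow cell 2, which then held no ND colon. ND and D3M thus shared only flow cell 3 in that fit, so B cell content and flow cell cannot be told apart in it. The part of B cell content in the colon values was not tested beyond this.

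*Gata2*, a transcription factor of mast cell and other blood progenitors (rn6 chr4:120133713-120142488, plus strand), had the largest of these differences. In ND colon its CPM ran from a lowest value of 4.89 through a median of 7.17 to a highest of 9.33. In D1M it ran from 3.59 through 5.65 to 8.95, and in D3M from 2.53 through 2.96 to 4.13. Every D3M value lay below every ND value, a separation that 0.465% of all transcripts tested showed in this direction, while D3M and D1M overlapped. The log2 fold change of D3M against ND was -1.06 ± 0.22 (SE, n = 6 per group) with an unadjusted p of 0.000207 and an FDR of 0.141 in edgeR. DESeq2 gave an FDR of 0.00779, and edgeR fitted to the ND and D3M libraries alone gave 0.0267. Without ND K4028 the log2 fold change was -0.965 ± 0.23 with an FDR of 0.375, and 0 of 8 genes were again called. With each library left out in turn it lay between -1.23 and -0.92, with FDR between 0.0909 and 0.453. Without the libraries rich in B cell transcripts it was -0.74 ± 0.32 with an FDR of 0.655.

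*Mcpt2* ran from 309 through 483 to 664 CPM in ND colon, from 280 through 430 to 651 in D1M and from 120 through 252 to 344 in D3M. The 2 D3M rats with the highest values, K3980 and K3961, were on flow cell 3, and 1 of them lay above the lowest ND rat. D3M differed from ND by -0.99 ± 0.26 on the log2 scale (edgeR FDR 0.257), and DESeq2 gave an FDR of 0.0327. Without the libraries rich in B cell transcripts the difference was -0.54 ± 0.30 (edgeR FDR 0.73). The *Mcpt2* gene model used for counting (rn6 chr15:34862266-35034622, plus strand) spans much of the rat chymase cluster, and 8 related chymase genes that were looked for, among them *Mcpt1* and *Mcpt3*, had no row of their own. Reads of near-identical copies may therefore stand in the *Mcpt2* count, and its level is uncertain to that extent.

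*Ms4a2*, which encodes the signal-amplifying β chain of FcεRI (rn6 chr1:227957302-227965386, minus strand), ran from 5.55 through 9.01 to 10.7 CPM in ND, from 4.88 through 8.30 to 12.4 in D1M and from 2.92 through 4.36 to 6.78 in D3M colon. Only rat K3980 of the D3M group lay above the lowest ND rat. The log2 fold change of D3M against ND was -0.92 ± 0.25 (edgeR FDR 0.272). *Hdc*, histidine decarboxylase (rn6 chr3:119057517-119075619, minus strand), ran from 2.20 through 2.91 to 3.46 CPM in ND, from 1.85 through 2.72 to 4.54 in D1M and from 1.36 through 1.67 to 1.93 in D3M. The D3M values lay in a narrow range below the whole ND range and reached into that of D1M. Its log2 fold change was -0.66 ± 0.21 (edgeR FDR 0.346). Without the libraries rich in B cell transcripts it was -0.14 ± 0.27, and that of *Ms4a2* was -0.50 ± 0.32 (edgeR FDR 0.938 and 0.771).

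The other 4 genes overlapped more widely between groups. *Cpa3* (rn6 chr2:105016626-105047984, minus strand) had 3 D3M rats at 4.47, 6.865 and 7.47 CPM, below the whole ND range of 13.6 to 23.4, and 3 at 14.96, 16.1 and 19.3 inside it. *Cma1*, the α-chymase (rn6 chr15:34601037-34603819, minus strand), ran from 1.38 to 11.7 CPM in D3M and from 7.23 to 11.3 in ND, so that the highest and the lowest library of these groups were both D3M. *Fcer1a* (rn6 chr13:91730925-91737053, minus strand) ran from 0.966 to 2.97 CPM in ND and from 0.543 to 1.95 in D3M. *Kit* (rn6 chr14:35072108-35149610, minus strand) was the least different, at 39.3 ± 5.03 CPM in ND and 31.8 ± 5.33 CPM in D3M (SD, n = 6). Their log2 fold changes lay between -0.65 and -0.28 with unadjusted p between 0.0797 and 0.169. Without the libraries rich in B cell transcripts they lay between -0.25 and 0.00078, with *Cpa3* at -0.06 ± 0.42 (edgeR FDR 0.988).

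**Figure D1:**
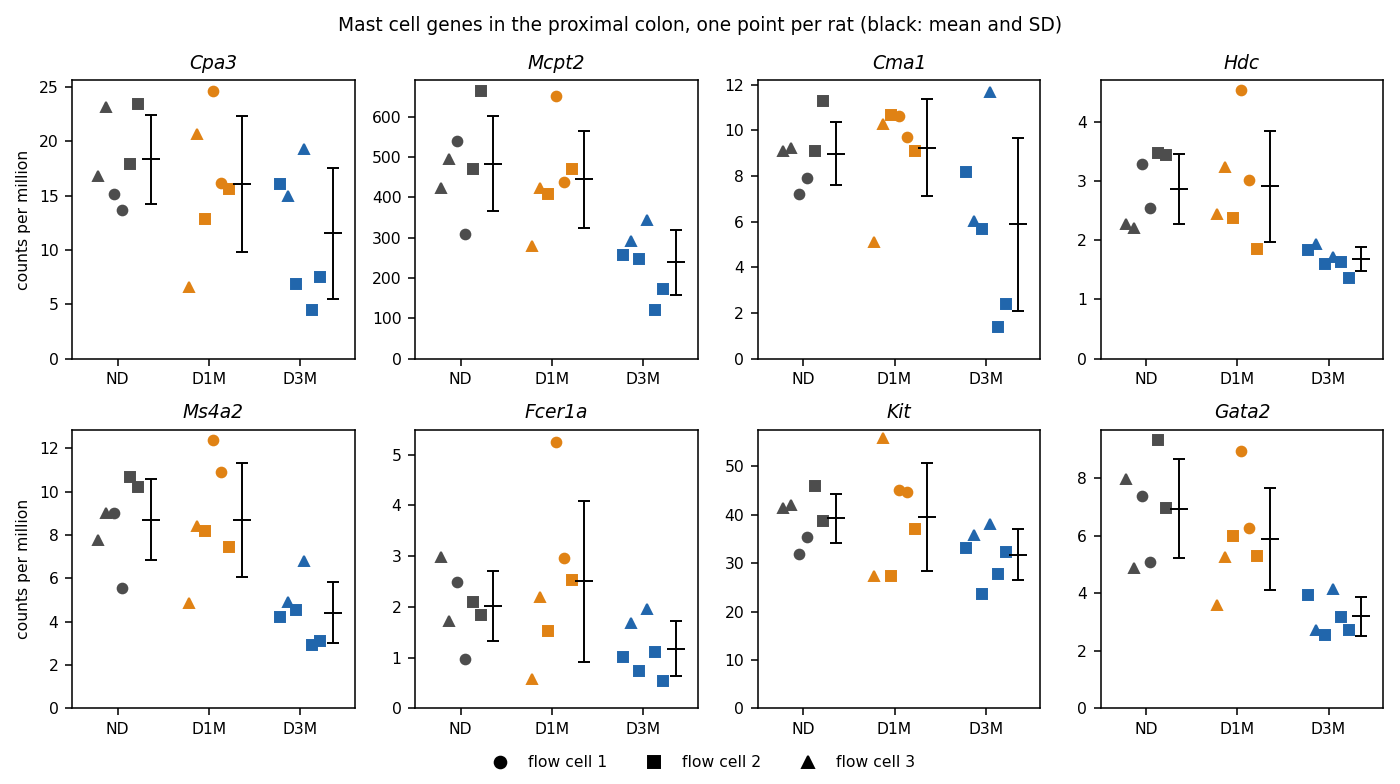
CPM (linear axis from 0) of the 8 tested mast cell genes in the proximal colon. Each point is 1 rat, marker shape gives the flow cell, and black bars give the mean and SD of 6 rats. The D3M points of *Gata2* and *Hdc* all lie below the ND points, while those of *Cma1* spread from 1.38 to 11.7.

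D1M colons were close to ND colons, and the D3M values were also low against the age-matched D1M group. For D1M against ND 0 of 8 genes were called by edgeR, DESeq2 or voom at an FDR under 0.05 with 0% of all transcripts called, and 0 of 8 had an unadjusted p under 0.05, against 4.66% of all. The 8 log2 fold changes lay between -0.26 and 0.24. For D3M against D1M, 0 of 8 were called by the same tools, with 0% of all transcripts called, and 4 of 8 had an unadjusted p under 0.05, against 3.07% of all transcripts that were lower at that threshold. These were *Gata2* (-0.81 ± 0.23), *Ms4a2* (-0.89 ± 0.26), *Mcpt2* (-0.86 ± 0.26) and *Hdc* (-0.66 ± 0.22), each with an edgeR FDR of 0.88. The count of 4 was 8 without D1M rat K3978, the lowest D1M rat for 7 of the 8 genes, and 7 in voom. It was 4 again, with a median of -0.61 in place of -0.74, without the libraries rich in B cell transcripts. D3M against ND and D3M against D1M share the D3M rats, so the second set of values is not independent of the first.

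D3M colons were unevenly spread over flow cells, so values are also given within each. On flow cell 2 the 4 D3M colons held 2.53 to 3.92 CPM of *Gata2* and the 2 ND colons 6.95 and 9.33. On flow cell 3 the 2 D3M colons held 2.74 and 4.13 CPM and the 2 ND colons 4.89 and 7.97, so *Gata2* did not overlap on either. *Mcpt2* did not overlap either, with 120 to 256 CPM in D3M against 471 and 664 in ND on flow cell 2, and 292 and 344 against 424 and 495 on flow cell 3. *Cpa3* held 4.47 to 16.1 CPM in D3M against 17.9 and 23.4 in ND on flow cell 2, whereas on flow cell 3 D3M held 14.96 and 19.3 against 16.8 and 23.1. Without flow cell 2, which leaves 2 D3M colons, 0 of 8 genes had an unadjusted p under 0.05. The log2 fold change of D3M against ND was then -0.69 ± 0.39 for *Gata2* and -0.35 ± 0.32 for *Mcpt2*, and it was above 0 for *Cpa3*, *Cma1* and *Fcer1a*. D3M rats P762 and P780 were both on flow cell 2 in the colon and on flow cell 3 in the ileum. In the colon they were the 2 lowest D3M rats for *Mcpt2* (120 and 172 CPM), *Ms4a2* (2.92 and 3.12) and *Cma1* (1.38 and 2.38). They were not the 2 lowest for *Gata2*, *Hdc*, *Cpa3*, *Kit* or *Fcer1a*. The part of these 2 rats in the flow cell values was not tested beyond leaving out each library in turn. The flow cell coefficients called 0 of 8 genes in the colon, where they called 11.8% of all transcripts, and 0 of 8 in the ileum, where they called 4.93%. At an unadjusted p under 0.05 there were 0 of 8 in each tissue, against 29.8% of all transcripts in the colon and 22% in the ileum.

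**Figure D2:**
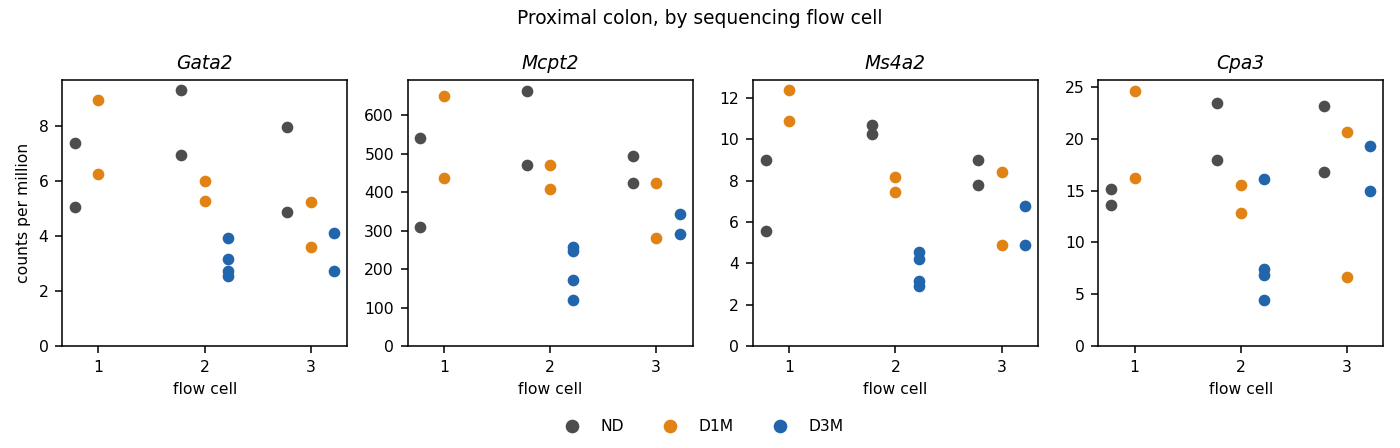
CPM (linear axis from 0) of 4 genes in the proximal colon, split by flow cell, 1 point per rat and colour by group. D3M points lie below ND points on flow cells 2 and 3 for *Gata2*, *Mcpt2* and *Ms4a2*, and flow cell 1 holds no D3M library.

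In the ileum the D3M means were again the lowest for each of the 8 genes, with wide overlap. On flow cell 3 the 2 D3M libraries, rats P762 and P780, averaged 43.6 CPM of *Mcpt2*, against 110 in D1M and 140 in ND (K4040 included). On flow cell 1 the 4 D3M libraries averaged 90.2 CPM, against 75.8 in D1M and 99.8 in the only ND library. D3M means on flow cell 1 were above those of D1M for each gene except *Kit* and *Hdc*. On flow cell 3 they were the lowest for all 8 genes. Rats P762 and P780 were the 2 lowest D3M rats in the ileum for *Kit*, *Hdc* and *Cma1*, and not for the other genes. For D3M against ND 0 of 8 were called by edgeR, where 12.5% of 13026 transcripts tested were called and 4.22% were called lower. DESeq2 called 1 of 8 and voom 0, and 2 of 8 had an unadjusted p under 0.05 and were lower, against 14.7% of all transcripts. The fitted difference was below 0 for 8 of 8, against 58.4% of all transcripts. The median log2 fold change was -0.62 over the 8 genes and -0.08 over all transcripts. Without ND K4040 it was -0.37, 7 of 8 were below 0 against 57.6% of all transcripts, and 1 of 8 was lower at an unadjusted p under 0.05, against 12.1%. *Mcpt2* then moved from -0.68 ± 0.47 to -0.37 ± 0.47 and *Cpa3* from -0.76 ± 0.54 to -0.53 ± 0.56 (edgeR FDR 0.633 and 0.566). *Kit* ran from 13.4 through 18.3 to 27.0 CPM in ND, from 14.95 through 16.4 to 17.9 in D1M and from 9.67 through 14.6 to 18.4 in D3M. The ND maximum came from rat K4040, whose library held colon RNA, and 2 D3M rats lay below the ND range. The log2 fold change was -0.59 ± 0.19 with an edgeR FDR of 0.0505. It was 0.0306 in DESeq2 and 0.0485 with the quasi-likelihood method of edgeR 4. Leaving out single libraries (ND K4038, ND K4048, D1M K3987, D3M K3959 or D3M K3980) brought it to between 0.031 and 0.0465, and leaving out ND K4040 gave -0.37 with an FDR of 0.163.

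*Ms4a2* ran from 2.46 through 3.35 to 5.48 CPM in ND ileum and from 1.06 through 2.50 to 4.47 in D3M, a log2 fold change of -0.83 ± 0.35 (edgeR FDR 0.121). With each library left out in turn it lay between -1.02 and -0.52, with FDR from 0.0419 (without D3M K3980) to 0.294, and without ND K4040 it was -0.67 ± 0.37 with an FDR of 0.262. *Cpa3* ran from 3.42 to 9.19 CPM in ND, from 4.40 to 7.19 in D1M and from 0.437 to 11.7 in D3M. The D3M group thus held both the lowest library, rat P780, and the highest, rat K3980. The same 2 rats were the extremes for *Mcpt2* among D3M ileum libraries, at 16.9 and 160 CPM, and for *Cma1*, at 0.562 and 5.09 CPM. *Fcer1a* had 0 counts in rat P780, and its log2 fold change of -0.26 ± 0.82 was above 0 without that rat or without ND K4040. The ileum of rat P780 was also the lowest of the 18 ileum libraries for the summed macrophage (209 CPM), fibroblast (517), endothelial (90.9), T cell (26.5) and B cell (4.68) genes, and the part of this in its low values was not tested. For D3M against D1M 0 of 8 were called by edgeR, DESeq2 or voom, with 2.22% of all transcripts called. At an unadjusted p under 0.05, 1 of 8 was lower, against 7.92% of all transcripts, namely *Hdc* (-1.07 ± 0.46, edgeR FDR 0.218). For D1M against ND 0 of 8 were called by any of the 3 tools, with 0.0154% of all transcripts called, and 0 of 8 had an unadjusted p under 0.05, against 8.34% of all.

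**Figure D3:**
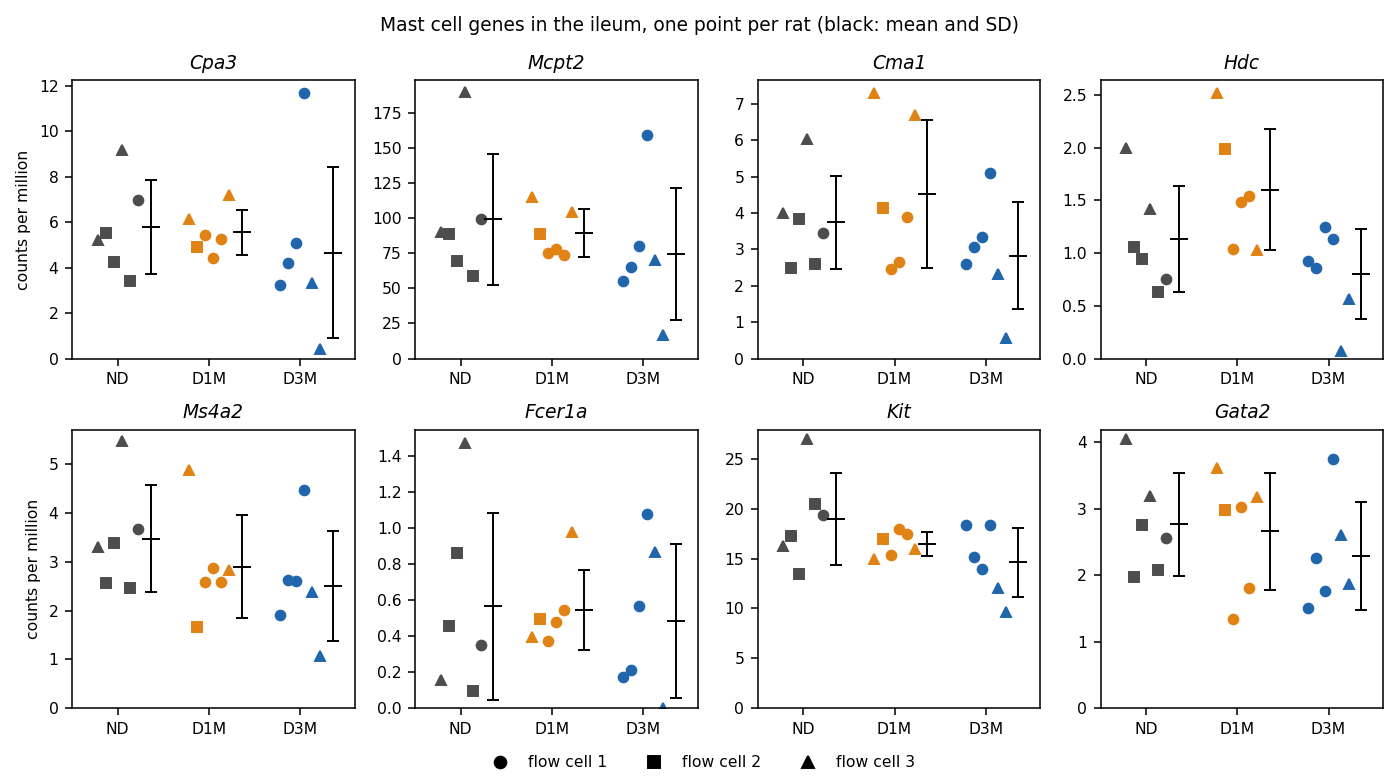
CPM (linear axis from 0) of the 8 tested mast cell genes in the ileum, drawn as for the colon. Groups overlap for each gene, and D3M libraries span the widest range of *Cpa3*, from 0.437 to 11.7 CPM.

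The group differences were not shown to depend on the tissue. In a model over 36 libraries, 0 of 8 genes differed between colon and ileum in D3M against ND, where 1.56% of 13697 transcripts were called, and 0 of 8 in the other 2 group comparisons, where 0% were called. DESeq2 also gave 0 in each of the 3 comparisons. At an unadjusted p under 0.05 there was 1 of 8 in D3M against ND, against 16.8% of all transcripts, and 0 of 8 in D1M against ND and in D3M against D1M, against 5.66% and 8.31%. The 1 gene was *Gata2*, for which the colon difference minus the ileum difference was -0.82 ± 0.38 on the log2 scale (edgeR FDR 0.257).

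**Figure D4:**
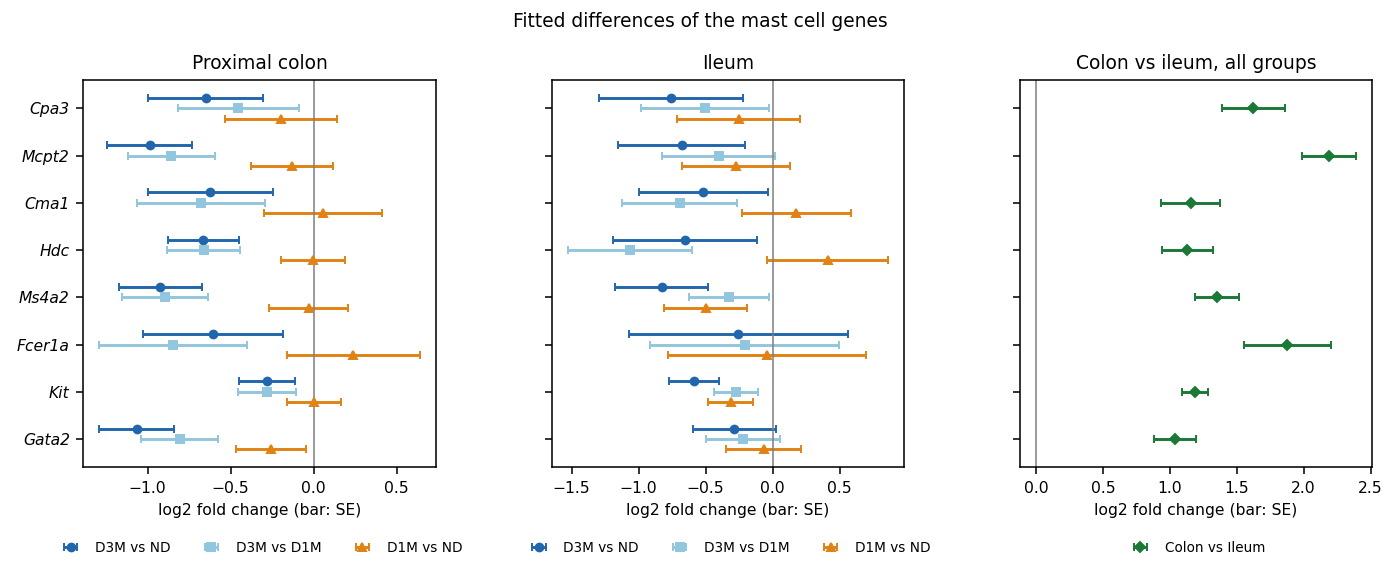
Fitted log2 fold changes (points) with standard errors (bars) of the 8 genes for the group comparisons within each tissue and for colon against ileum. Points for D3M lie left of 0 in both tissues, D1M against ND lies near 0 in the colon, and colon against ileum lies between 1.04 and 2.19.

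The genes followed one another across rats. Over the 28 pairs of 8 genes, Pearson's r of log2 CPM across 18 colon libraries ran from 0.53 to 0.95 with a median of 0.755, and after group and flow cell means were removed the median was 0.59. In the ileum r ran from 0.06 to 0.97 with a median of 0.57, and 0.59 after that removal. The closest pair was *Mcpt2* with *Ms4a2* in the colon, at 0.95, and *Mcpt2* with *Cpa3* in the ileum, at 0.97. *Hdc* was the loosest in the ileum, with r between 0.06 and 0.51 to the other 7. These values are descriptions: the libraries share rats' tissue composition, depth scaling and groups, and genes within a library are not independent.

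**Figure D5:**
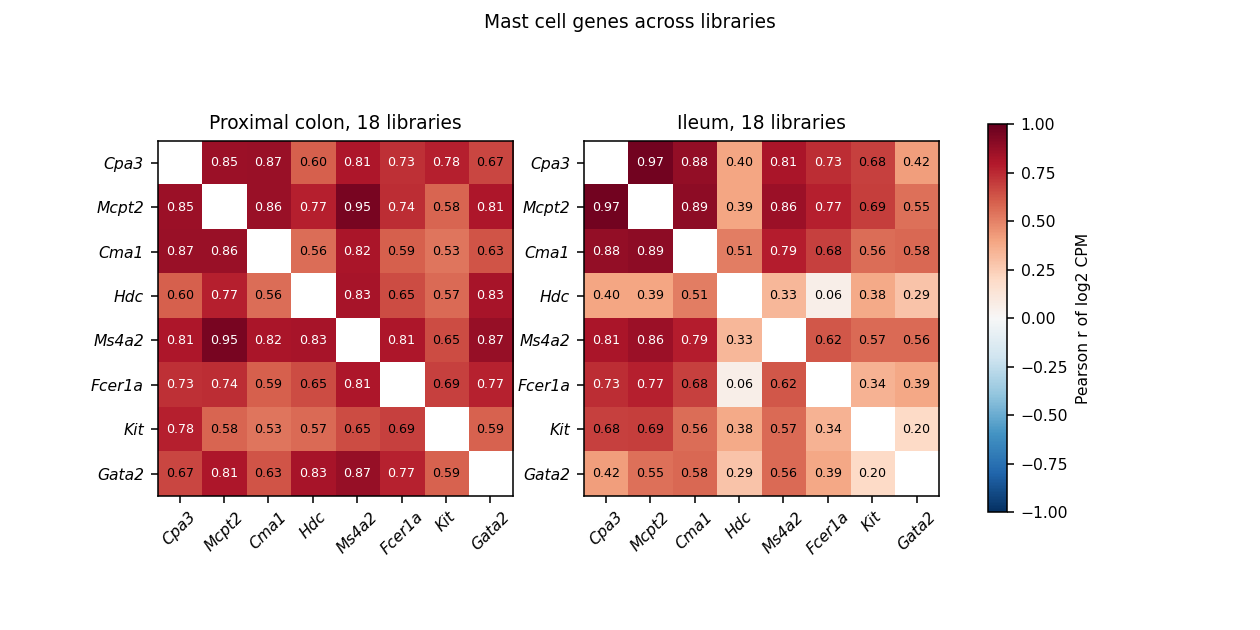
Pearson's r of log2 CPM between each pair of the 8 genes across 18 libraries per tissue, colour scale from -1 to 1. Values run from 0.53 to 0.95 in the colon, and in the ileum the lowest are 0.06 for *Hdc* with *Fcer1a* and 0.20 for *Kit* with *Gata2*.

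Outside the 10 genes, the transcripts most like *Cpa3* and *Mcpt2* were named by their r over 18 libraries, with no test. In the ileum the top transcript for both was the serine protease gene *Mcpt8l2*, with r of 0.91 to *Cpa3* and 0.94 to *Mcpt2*. It belongs to the basophil list used here, as does *Mcpt8*, which was among the 8 most like *Mcpt2* there, at 0.83. *Nkg7*, a granule membrane protein gene known from cytotoxic cells, had r of 0.88 and 0.85. *Igsf10* and *Jaml* were also among the 8 most alike for both, at 0.85 to 0.90. In the colon the top transcript for *Cpa3* was the vesicular monoamine transporter *Slc18a1*, at 0.87, and for *Mcpt2* it was *Nkg7*, at 0.92, followed by *Tal1*, a blood lineage transcription factor, at 0.86. *Adamdec1*, *Col6a5*, *C1qtnf3*, *Aif1* and *Col4a5*, genes of stroma and macrophages, were among the 8 most like *Cpa3* there, at 0.81 to 0.83. The 5-lipoxygenase-activating protein gene *Alox5ap* was also among the 8 most like *Mcpt2* in the colon, at 0.80. The summed level of macrophage genes had r of 0.70 to *Cpa3* in the colon and 0.79 in the ileum, and that of fibroblast genes 0.61 and 0.74, while smooth muscle gave -0.52 and -0.32. Endothelial genes gave 0.56 and 0.79, the list of endocrine (enterochromaffin-like) genes 0.70 and 0.38, and neutrophil genes 0.13 and 0.72. Basophil genes gave 0.12 and 0.44. Once group and flow cell means were removed, basophil genes gave 0.23 and 0.81, and macrophage genes 0.90 and 0.84. To *Mcpt2* in the ileum, basophil genes had r of 0.63, and 0.88 after that removal. In the colon *Mcpt8* averaged 27.3 ± 5.74 CPM in ND and 28.7 ± 5.40 in D3M (log2 fold change 0.05 ± 0.18, edgeR FDR 0.946), and *Mcpt8l2* 15.02 ± 3.25 and 12.1 ± 1.57 (-0.30 ± 0.17, FDR 0.558).

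The wider mast cell pathway was read from 7 lists. Their sums followed *Cpa3* unevenly. Eicosanoid genes had r of 0.36 in the colon and 0.67 in the ileum, and other granule proteases 0.33 and 0.45. Growth genes gave 0.41 and 0.17, IgE signalling genes 0.27 and 0.10, and granule storage genes 0.03 and -0.31. The histamine list gave 0.02 and -0.32, and the surface and regulator list -0.19 and 0.03. The part of mast cells in these lists was not tested. For colon D3M against ND, 0 of the 40 genes tested in the 7 lists were called. The fitted difference was below 0 for 82.5% of the 40, against 52.4% of all transcripts, and 22.5% were lower at an unadjusted p under 0.05, against 5.56%. Without the libraries rich in B cell transcripts these shares were 67.5% against 48.3%, and 10% against 4.1%. Eicosanoid genes were below 0 in 7 of 7 tested, with a median of -0.68, and 3 had an unadjusted p under 0.05. These were *Alox5ap* (-0.86 ± 0.20, edgeR FDR 0.233), the lipoxygenase *Alox5* (-0.72 ± 0.26, FDR 0.376) and the leukotriene C4 synthase *Ltc4s* (-0.75 ± 0.25, FDR 0.364). The cyclooxygenase *Ptgs1* stood at -0.05 ± 0.11 (FDR 0.909). Without the libraries rich in B cell transcripts, 6 of 7 eicosanoid genes were below 0 with a median of -0.52. In that edgeR fit 1 was lower at an unadjusted p under 0.05. IgE receptor signalling genes were below 0 in 10 of 10 with a median of -0.56 (8 of 10 and -0.23 without the libraries rich in B cell transcripts, several of these genes being B cell genes too), among them the kinases *Syk* (-0.42 ± 0.27, FDR 0.611) and *Lyn* (-0.28 ± 0.20, FDR 0.65). Growth and differentiation genes were below 0 in 7 of 10 with a median of -0.13 (3 of 10 and 0.09 without the libraries rich in B cell transcripts). Among them *Kitlg*, the KIT ligand gene, stood at 0.16 ± 0.20 (FDR 0.804) and the interleukin 3 receptor gene *Il3ra* at 0.05 ± 0.09 (FDR 0.898). Granule storage genes were below 0 in 2 of 4 tested, with *Cd63* at 0.14 ± 0.11 (FDR 0.676) and *Vamp8* at 0.08 ± 0.14 (FDR 0.876). Of other granule proteases 2 of 4 with a row were tested, *Tpsg1* at 0.28 ± 0.15 (FDR 0.557) and *Mcpt4* at -0.75 ± 0.45 (FDR 0.586). The surface and regulator list was below 0 in 4 of 5. *Rgs13*, a G protein regulator of mast cells and germinal centre B cells, did not overlap between groups at 1.23 to 5.13 CPM in ND and 0.161 to 1.18 in D3M (-1.92 ± 0.52, FDR 0.272). A separation in this direction was seen in 1 of 5 genes of the list, against 0.465% of all transcripts. The lowest D3M value lay within the 0.145 to 0.286 CPM that 3 counts stood for. *Enpp3* stood at 0.09 ± 0.24 (FDR 0.926) and *Calb2* at -0.0057 ± 0.36 (FDR 0.996). The histamine list had 2 genes tested in the colon, both below 0, with *Aoc1* at -0.31 ± 0.19 (FDR 0.583), or -0.08 ± 0.12 without ND K4028, and *Hnmt* had counts in the ND library of K4028 alone, at 16.9 CPM.

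In the ileum 7 of the 42 genes tested in these lists passed at D3M against ND, 16.7% against 12.5% of all transcripts, a share near the background. Of these 5 were lower and 2 higher, where 4.22% and 8.31% of all transcripts were. Without ND K4040 the share was 11.9% against 7.81%, and *Ltc4s* (FDR 0.0836) and *Rab27b* (FDR 0.0531) no longer passed. *Alox5ap* fell from 11.5 ± 2.38 CPM in ND to 6.71 ± 1.15 in D3M (log2 fold change -0.89 ± 0.17, edgeR FDR 0.0049), and *Ltc4s* fell by 1.05 ± 0.33 on the log2 scale (FDR 0.0463). *Rgs13* fell from 9.27 ± 1.58 to 4.54 ± 1.37 CPM (-1.13 ± 0.25, FDR 0.0093), and *Rab27b*, a granule trafficking gene, differed by -1.12 ± 0.33 (FDR 0.037). Both genes of histamine breakdown passed in opposite directions. *Hnmt*, the intracellular methyltransferase, fell from 35.9 ± 5.41 to 25.6 ± 3.89 CPM (-0.83 ± 0.13, FDR 0.00241), and *Aoc1*, diamine oxidase of the epithelium, rose by 0.63 ± 0.14 (FDR 0.00996). *Vamp8*, a vesicle fusion gene that epithelium also expresses, rose from 171 ± 19.4 to 261 ± 46.4 CPM (0.63 ± 0.12, FDR 0.00425). In whole tissue the genes of these lists may be carried by cells other than mast cells. Which cells carried the genes that passed was not tested. For D3M against D1M *Hnmt* (-0.68 ± 0.11, FDR 0.0137) and *Vamp8* (0.41 ± 0.10, FDR 0.0485) passed, 4.76% of the 42 against 2.22% of all transcripts, and 1 gene passed without ND K4040. For D1M against ND 0 genes of the lists passed. The IgE signalling and growth lists had 0 genes called in any ileum comparison. At D3M against ND *Lyn* stood at 0.27 ± 0.10 (edgeR FDR 0.0846) and *Syk* at 0.04 ± 0.17 (FDR 0.887), while *Kitlg* stood at -0.49 ± 0.22 (FDR 0.146) and *Il3ra* at -0.12 ± 0.10 (FDR 0.411). *Cd63* (0.32 ± 0.11, FDR 0.0694) and *Tpsg1* (-0.29 ± 0.26, FDR 0.486) did not pass either.

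Markers of other cells that could carry these transcripts were read the same way. For colon D3M against ND, 2 of 7 fibroblast genes tested were called and lower, against 0.0155% of all transcripts, the collagens *Col1a1* (-0.999 ± 0.14, edgeR FDR 0.0317) and *Col3a1* (-0.96 ± 0.15, FDR 0.0345), and 0 genes of the other cell lists were called. Without the libraries rich in B cell transcripts they stood at -0.96 ± 0.16 and -1.03 ± 0.19 with FDR 0.282 and 0.329, and 0 of all transcripts were called. With all libraries, endothelial genes were below 0 in 7 of 8 (median -0.17), against 52.4% of all transcripts. Of these 8, 2 were lower at an unadjusted p under 0.05 in edgeR, against 5.56% of all. T cell genes were below 0 in 7 of 7 (median -0.93), B cell genes in 6 of 6 (median -1.18) and macrophage genes in 8 of 8 (median -0.21), against 52.4% of all transcripts. Endocrine genes were below 0 in 5 of 5 (median -0.25) and smooth muscle genes in 2 of 8 (median 0.18). ND rats K4047 and K4048 stood apart here too, with T cell sums of 175 and 176 CPM against 19.5 to 41.8 in the other 4 ND colons, and without the 5 libraries rich in B cell transcripts the medians were -0.48 for T cell genes and 0.17 for the 3 B cell genes still tested. In that fit macrophage genes were below 0 in 5 of 8 (median -0.08), endocrine genes in 4 of 5 (-0.04) and smooth muscle genes in 8 of 8 (-0.27). Of the 8 endothelial genes, 0 were then lower at an unadjusted p under 0.05 in edgeR. The group medians of the sums were close, at 8.07 CPM in ND and 8.55 in D3M for B cells and 33.9 and 33.4 for T cells. Genes of interstitial cells of Cajal, which share *Kit*, had a median of -0.0045 with 0 of 5 called, summing to 100 to 157 CPM in ND and 95.1 to 150 CPM in D3M. The basophil list summed to 67.1 to 95.1 CPM in ND colon and 73.5 to 92.6 CPM in D3M, with 0 of 3 called. Neutrophil and eosinophil sums stayed at or under 9.04 CPM in every colon library. For ileum D3M against ND, where 8.31% of all transcripts were called higher and 4.22% lower, the mucosal marker genes of the ileum passed higher in 7 of 8, epithelial genes higher in 2 and lower in 1 of 6, endocrine genes lower in 2 of 5 (*Chga* and *Chgb*), and 1 gene each of the fibroblast, endothelial and eosinophil lists passed lower. Without ND K4040 the fibroblast and endothelial lists had 0 called and the endocrine list 1. The part of these shifts in the mast cell values was not tested.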

How the data were processed

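RNA of flash-frozen ileum and proximal colon was made into directional, poly(A)-selected libraries. According to the submitters' processing notes, reads were aligned to rn6 with STAR. The authors deposited whole-number counts per gene for 36 libraries in 1 table. A table of CPM values that the authors also deposited was not used. Samples were grouped by their labels.

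Members and gene lists were chosen with earlier results of these data known. The 10 members were taken by symbol. In the pathway lists every gene past the threshold and the 2 with the highest mean are named where tested. Listed genes that are not reported here were left out of their lists' counts and sums. For each tissue, edgeR 4.0.16 (R 4.3.3) fitted 18 libraries with group and flow cell (filterByExpr, TMM, glmQLFit with robust and legacy settings), and p-values were adjusted by Benjamini-Hochberg over all transcripts tested. Colon against ileum was fitted over 36 libraries with group, tissue and flow cell, and the difference between tissues with a mean per tissue and group. Levels are CPM with TMM-scaled totals over 36 libraries, and log2 CPM used a prior count of 2. The fit was tested on simulated data. limma 3.58.1 and DESeq2 1.42.0 gave alternatives. A fit without the 5 colon libraries whose B cell genes summed to over 100 CPM was chosen after seeing the data. Figures were drawn with matplotlib 3.10.9.

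Both tissues came from the same rat by the labels. Deviations from group means correlated within rats with r from -0.33 to 0.557 (median -0.037), over 0.1 in 6 of 18 rats. Of 90 library pairs within groups, 0 were identical. Precision rests on 6 rats per group.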

Additional observations from a re-analysis of the deposited data

Results flagged for a closer look

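In 4 of 48 sets of 6 libraries (8 genes in 2 tissues and 3 groups) 1 library lay far from the other 5. The cut-off used flags about 1 in 20 independent sets of normally distributed values. The sets here share libraries and the shape of their CPM values was not tested, so the expected number is not known. *Cma1* in D1M colon was 5.10 CPM in rat K3978, against 9.10 to 10.7 CPM in the other 5 rats. *Fcer1a* in D1M ileum was 0.978 CPM in rat K3990, against 0.371 to 0.545. *Mcpt2* in ND ileum was 190 CPM (189.98) in rat K4040, whose library also held colon marker genes, against 58.7 to 99.8. *Ms4a2* in D1M ileum was 4.88 CPM in rat K3978, against 1.66 to 2.87. Their part in the group results was not tested beyond leaving out each library in turn.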

How the results depend on the processing

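Calls were few and moved with the fit. The number of the 8 genes called in ileum D3M against ND was 0, and it was 1 (*Kit*) in DESeq2 and with the quasi-likelihood method of edgeR 4, and 0 to 2 when single libraries were left out (2 without D3M K3980). In colon D3M against ND it was 0, and 2 in DESeq2 (*Mcpt2*, *Gata2*) and 2 with only the 2 groups compared (*Ms4a2*, *Gata2*), and 0 with each library left out in turn. All other counts of calls between groups were 0, and colon against ileum 8, under every alternative run for them. With the rat as replicate block, which pairs the tissues by animal, colon against ileum called 8 and the 3 differences between tissues called 0, so the pairing changed no call. Without flow cell 2, colon D3M against ND was 0.027 for *Cpa3*, 0.12 for *Cma1* and 0.078 for *Fcer1a*, and D3M against D1M 0.061 for *Cpa3* and 0.047 for *Cma1*, all above 0 with 2 D3M colons left. Ileum D3M against ND of *Fcer1a* was 0.60 without the library that held RNA of the other tissue. With single libraries left out it ran from -0.64 to 0.60, and D3M against D1M from -0.66 to 0.18. In colon D3M against ND *Kit* was 0.00078 without the 5 colon libraries rich in B cell transcripts. Of 356 refits of the member values described here under other settings, 343 kept their direction and side of the threshold, 7 reversed and 6 became called. Of 738 refits with each library or rat left out in turn, these numbers were 729, 3 and 6. The fit of a tissue without its library that held RNA of the other tissue is in both sets. Member values of D1M against ND were near 0 and reversed in 12 of 215 ileum refits and 48 of 224 colon refits, with 0 past an FDR of 0.05. Depth limited *Tpsab1* and *Tpsb2*. The flow cell test was not run with DESeq2 or voom, and the tissue fits not with voom. The cause of these changes was not tested.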
